A study of Mus musculus with 8 samples.

Results

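Striatal interneuron markers were read as 10 genes of the 18193 that the array measures with a probe set assigned to exactly 1 gene. They have 14 such Affymetrix probe sets, out of 45037 non-control ones, and are Chat, Slc5a7 and Slc18a3 of cholinergic interneurons, Sst, Npy and Nos1 of the somatostatin class, Pvalb of the parvalbumin class, and Calb2, Th and Kit. The genes were listed by name as markers of these classes, with earlier results of these arrays known. Gene expression had been measured in the striatum of 8 mice of 22 months, 1 array per mouse, to compare 4 CHL2 mutants with 4 wild-type mice of the same age and of the strain given as C57BL/6 X CBA F1 hybrid. The CHL2 mice carried 150 CAG repeats, taken from exon 1 of the human HD gene, inside the mouse's own gene on both copies (Q150/Q150), which models Huntington's disease by knock-in. Mutants 141, 153 and 154 were female and mutant 191 was male, whereas wild-type mouse 161 was female and wild-type mice 170, 180 and 200 were male. The tissue was total striatum, so every value is a mean over all its cells.

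Interneurons are a small minority of striatal neurons, whose great majority are the medium spiny projection neurons. Large cholinergic interneurons release acetylcholine throughout the striatum, fast-spiking parvalbumin cells inhibit medium spiny neurons directly, and another class makes somatostatin, neuropeptide Y and nitric oxide together. In Huntington's disease the medium spiny neurons are known to be lost early, while cholinergic and somatostatin interneurons are known to be comparatively spared.

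The deposited values are log2 expression values, and array medians lay between 4.95 and 4.98. Arrays correlated at r = 0.990 to 0.996 within a group and at r = 0.983 to 0.991 between groups, over all probe sets. Wild-type mouse 170 stood apart in RNA quality: its 3' minus 5' difference was 1.37 for the Gapdh control probe sets and 2.65 for those of beta-actin, against at most 0.431 and 1.51 in the 7 other mice. The labelled tissue carried its defining genes, since the 21 measured medium spiny neuron genes averaged 11.1 to 11.3 on the log2 scale over wild-type arrays and 9.75 to 9.97 over mutant arrays. The 4 mice per group limit the precision of every value that follows.

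A single interneuron marker passed the test for a difference between the genotypes. The other markers cannot be read as unchanged on that ground. Of the 14 probe sets, 5 lay under 5 on the log2 scale in all mice, where changes are compressed. The 95% interval of the log2 change excluded 0 for 4 of the 14, and that of Pvalb ran from -0.41 to 0.69. Nos1, which encodes the neuronal nitric oxide synthase, fell 1.35-fold at its brightest probe set, while the other 13 probe sets, including the 3 other ones for Nos1, did not pass. The test was limma's moderated linear model with genotype and recorded sex as terms, adjusted by Benjamini-Hochberg over all 45037 probe sets, and a probe set passed at an adjusted p under 0.05. Of the 14 interneuron marker probe sets 1 passed as lower, where 3.44% of all probe sets did, and 0 passed as higher, where 3.26% did. At an unadjusted p under 0.05 the count was 4 of 14, beside 19.2% of all probe sets. Log2 changes, sex-adjusted and given as the mutant minus the wild-type level, were below 0 for 12 of the 14 probe sets and for 22183 of the 45037, with a median of -0.16 against 0.0031 over all probe sets. The 2 genotypes' values stood apart with no overlap for 3 of the 14, namely 2 for Nos1 and the one for Npy, beside 15.4% of all probe sets. In bulk tissue, fewer cells of a type and less RNA per cell cannot be told apart.

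**Figure D1:**
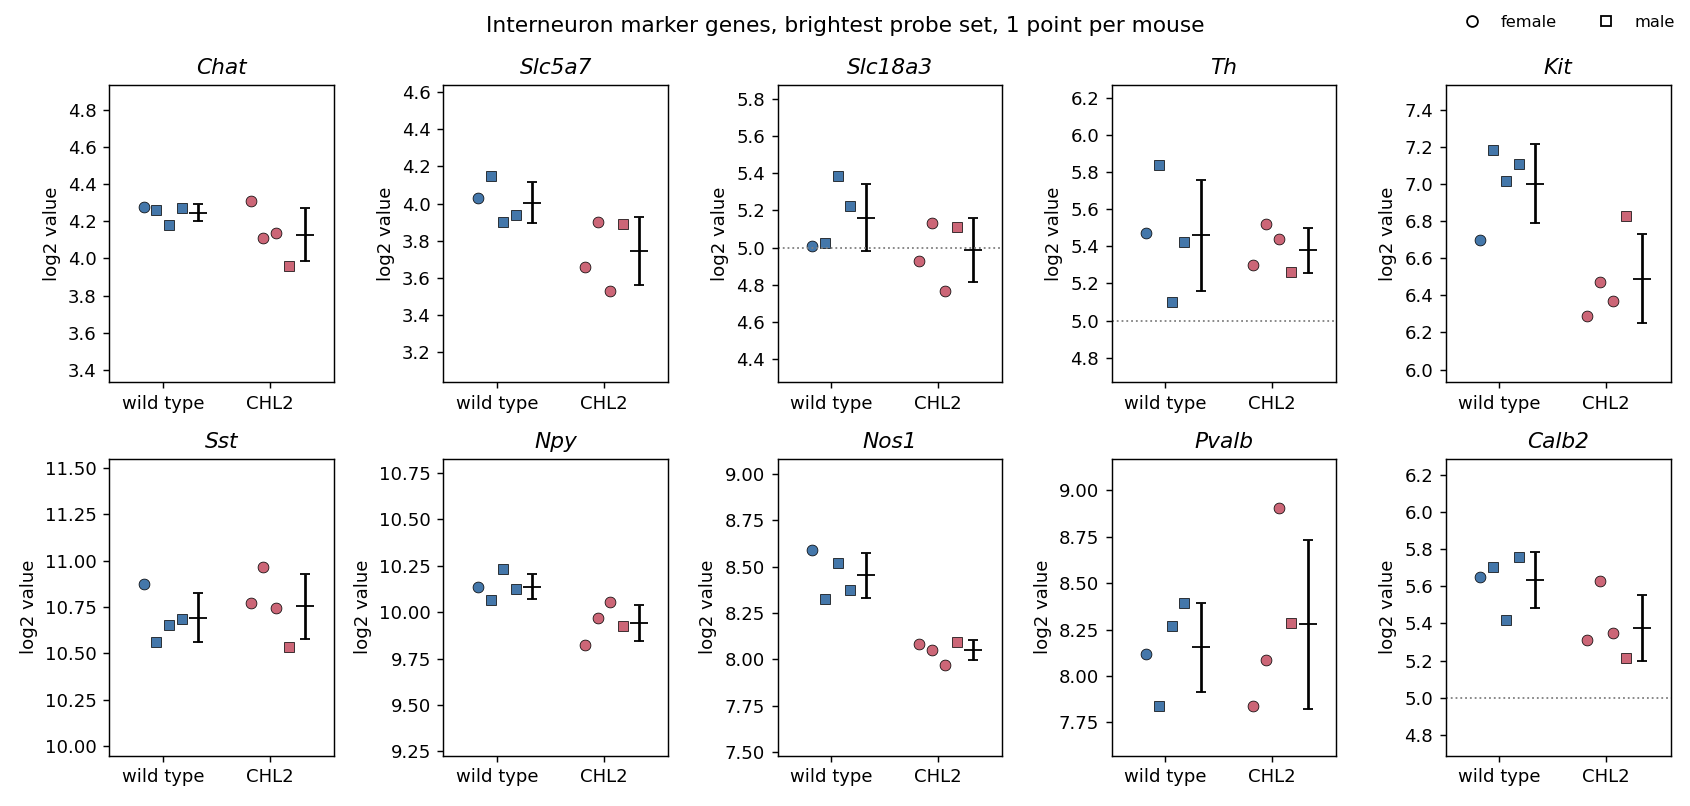
Log2 value of the brightest probe set of each of the 10 genes in every mouse, wild type in blue and CHL2 in red, circles for females and squares for males, with mean and SD (n = 4) as black bars; every panel spans 1.6 log2 units, and the dotted line marks log2 of 32. The groups separate in the panels of Nos1 and Npy, and Chat and Slc5a7 lie wholly below 5.

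Within the somatostatin class, Nos1 fell at 1 of its 4 probe sets, while Sst and Npy did not pass the test. Sst encodes the peptide hormone precursor that gives the class its name. Its values were 10.87, 10.56, 10.65 and 10.69 in wild-type mice 161, 170, 180 and 200, and 10.77, 10.97, 10.75 and 10.53 in mutants 141, 153, 154 and 191. The ranges overlapped widely, and both the lowest and the highest of the 8 values came from mutants. The log2 change was -0.073 (SE 0.092, limma adjusted p = 0.763), with a 95% interval of -0.28 to 0.13, or 0.825 to 1.10 times the wild-type level.

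Npy encodes neuropeptide Y, a co-transmitter of the same cells. It measured 10.13, 10.06, 10.23 and 10.13 in wild-type mice 161, 170, 180 and 200, and 9.82, 9.97, 10.05 and 9.93 in mutants 141, 153, 154 and 191. All 4 mutants lay below all 4 wild-type mice, by a narrow margin between mutant 154 and wild-type 170. The log2 change was -0.20 (SE 0.093) and did not pass (limma adjusted p = 0.286), with an interval of -0.41 to 0.0090.

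Nos1 measured 8.59, 8.32, 8.52 and 8.38 at its brightest probe set (1438483_at) in wild-type mice 161, 170, 180 and 200. The mutants 141, 153, 154 and 191 measured 8.08, 8.05, 7.97 and 8.09. Every mutant was lower than every wild-type mouse, and the mutants spread less (SD 0.055) than the wild-type mice (SD 0.12). Nos1 thus fell by 0.43 on the log2 scale (SE 0.095, limma adjusted p = 0.0252), and group means went from 8.45 to 8.05. Without wild-type 161, without mutant 191 or without wild-type 180 the call was lost. The log2 change was -0.31 without 161 (adjusted p = 0.344), -0.56 without 191 (adjusted p = 0.0847) and -0.42 without 180 (adjusted p = 0.0564). Mice 161 and 191 are each the single animal of their sex in their group, and when the fit had no sex term the probe set passed in all 8 fits that leave out 1 mouse (adjusted p 0.00984 to 0.0399).

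A second bright probe set for Nos1 (1429887_at) measured 8.19, 8.64, 8.40 and 8.26 in wild-type mice 161, 170, 180 and 200 and 8.02, 8.06, 7.63 and 8.11 in mutants 141, 153, 154 and 191. These groups did not overlap either, but the log2 change of -0.31 (SE 0.13) did not pass (limma adjusted p = 0.254). Its order of mice differed from that of the brightest probe set: wild-type 170, the mouse with the high 3' to 5' difference, was the highest of the wild-type mice here and the lowest there, and the part of RNA quality in either value was not tested. Without wild-type 170 the brightest probe set still passed. The remaining Nos1 probe sets, 1422949_at and 1458626_at, stayed under 5, the log2 of 32, in all 8 mice, and their log2 changes were 0.020 and -0.0068. The mean of the 4 Nos1 probe sets gave a log2 change of -0.18 that did not pass (adjusted p = 0.138).

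**Figure D2:**
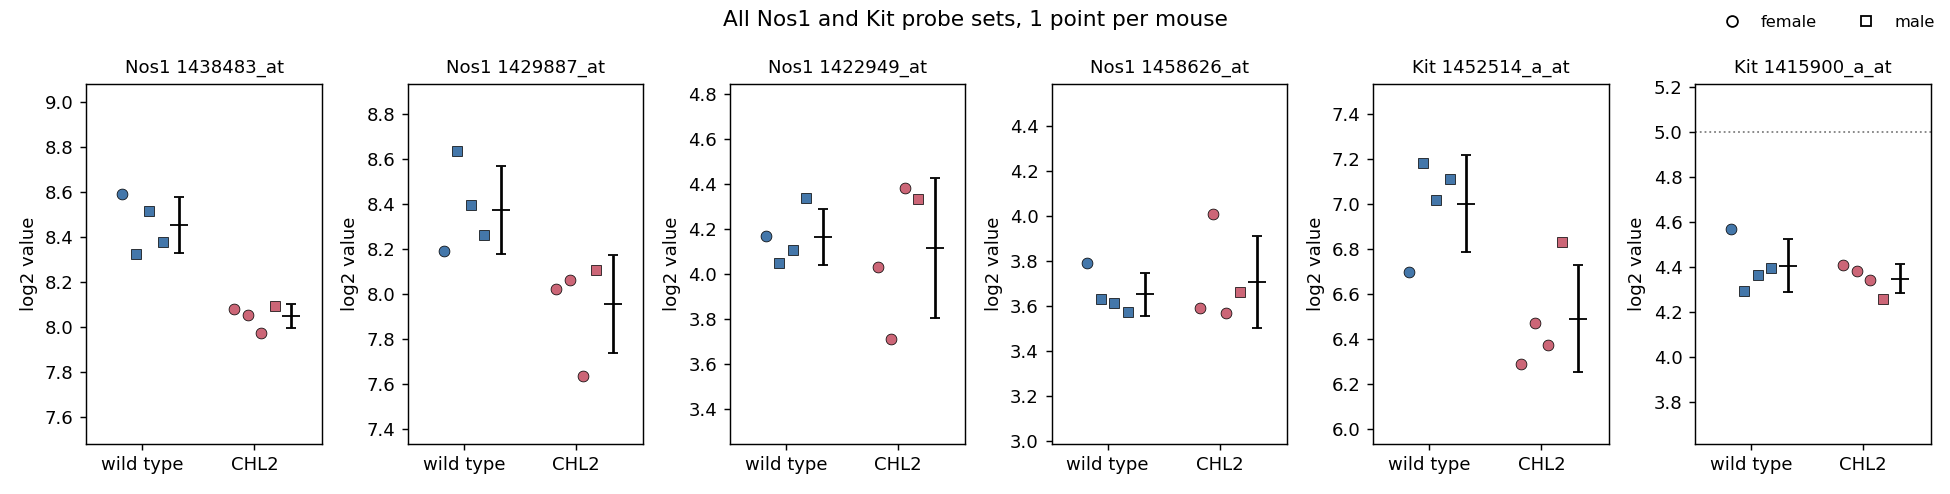
Log2 value of all 4 Nos1 and both Kit probe sets in every mouse, wild type in blue and CHL2 in red, circles for females and squares for males, with mean and SD (n = 4) as black bars; every panel spans 1.6 log2 units, and the dotted line marks log2 of 32. The first 2 Nos1 panels separate the groups, and the dim Nos1 panels and the dim Kit panel do not.

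Sst, Npy and Nos1 were listed as markers of 1 interneuron class, so their levels were also compared within each array. Whether the same cells made all 3 was not measured in this bulk tissue. Sst minus Nos1, both at the brightest probe set, was 2.24 ± 0.077 (SD, n = 4) in wild-type and 2.70 ± 0.20 in mutant mice. The groups did not overlap (2.13 to 2.31 against 2.44 to 2.91). Without adjustment for sex, the difference of 0.46 gave p = 0.0286 in a two-sided exact permutation test, the smallest that 4 against 4 mice can give. Nos1 by itself gave the same p in that test, so the pair is not separate support for its fall. The comparisons between genes were added after the values were seen. Npy minus Nos1 differed by 0.21 (exact permutation p = 0.0571) and Sst minus Npy by 0.26 (exact permutation p = 0.114). Over the 6 pairs tested within the somatostatin and cholinergic classes, Benjamini-Hochberg adjustment gave 0.171 for both Nos1 pairs and 0.229 for Sst and Npy, so none passed. None of these permutation tests took account of sex, while 3 of 4 mutants and 1 of 4 wild-type mice were female. Sst was higher in females by 0.27 in the limma fit, which did not pass. The sex-adjusted log2 changes were -0.073 for Sst and -0.43 for Nos1. The Sst minus Nos1 difference was 0.51 between the female and 0.21 between the male mice. The female value rests on 1 wild-type mouse and the male value on 1 mutant. The part of sex in the difference of 0.46 was not tested.

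The promoters of these 3 genes are shown because the genes were listed for 1 cell class while only Nos1 passed the test. Each is the RefSeq window from 250 bases before to 50 bases after the gene's start in build GRCm38.p6, read 5' to 3' on the gene's strand. Capitals mark TGACGTCA, the cyclic AMP response element for which the Sst promoter is a textbook example, and its half-site TGACG or CGTCA, which the full element contains.
Sst (chr16:23890795-23891094, minus strand): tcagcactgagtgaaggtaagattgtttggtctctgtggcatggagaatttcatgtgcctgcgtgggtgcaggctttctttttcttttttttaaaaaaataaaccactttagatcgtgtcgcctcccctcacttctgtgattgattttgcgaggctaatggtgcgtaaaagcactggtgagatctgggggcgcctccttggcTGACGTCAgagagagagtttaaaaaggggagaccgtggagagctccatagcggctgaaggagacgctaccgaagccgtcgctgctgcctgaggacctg
Nos1 (chr5:117866589-117866888, plus strand): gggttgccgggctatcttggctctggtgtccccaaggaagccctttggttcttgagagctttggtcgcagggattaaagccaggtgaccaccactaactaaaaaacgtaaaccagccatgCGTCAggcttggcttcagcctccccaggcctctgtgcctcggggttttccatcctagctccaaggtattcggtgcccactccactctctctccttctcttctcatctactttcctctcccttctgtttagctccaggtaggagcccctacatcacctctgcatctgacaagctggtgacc
Npy (chr6:49822460-49822759, plus strand): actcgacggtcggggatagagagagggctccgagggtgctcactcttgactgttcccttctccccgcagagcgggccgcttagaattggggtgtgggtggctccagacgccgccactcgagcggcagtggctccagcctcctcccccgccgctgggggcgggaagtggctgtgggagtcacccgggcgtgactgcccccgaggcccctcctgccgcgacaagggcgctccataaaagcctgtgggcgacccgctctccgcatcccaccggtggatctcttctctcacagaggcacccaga
The 9 interneuron marker genes with a window have 11 windows. The full element was found in 2 of these 11, those of Sst and Th, and in 1.79% of all 32851 windows. A half-site on either strand was found in 5 of the 11, those of Chat, Nos1, Slc18a3, Sst and Th, and in 20.8% of all windows. The Npy window held neither string. Of the genes with the full element, neither Sst nor Th passed the test, and these matches are descriptions of sequence alone.

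Cholinergic genes were dim on these arrays and none of them passed. Chat encodes choline acetyltransferase, which makes acetylcholine, Slc18a3 the transporter that loads it into vesicles, and Slc5a7 the transporter that takes choline back up. Slc18a3 lies within the span of Chat in the RefSeq gene table. All 8 values of Chat and of Slc5a7 lay under 5, so their log2 changes rest on signal near background and would be compressed.

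Chat measured 4.27, 4.26, 4.18 and 4.27 in wild-type mice 161, 170, 180 and 200 and 4.31, 4.11, 4.14 and 3.96 in mutants 141, 153, 154 and 191. Mutant 141 was the highest of all 8 mice while the 3 other mutants lay below every wild-type mouse. The log2 change was -0.18 (SE 0.093, limma adjusted p = 0.336). Slc5a7 measured 4.03, 4.15, 3.90 and 3.94 in the wild-type mice and 3.66, 3.90, 3.53 and 3.89 in the mutants, in the same order of mice, a log2 change of -0.22 (SE 0.12, limma adjusted p = 0.378). Here too 3 mutants lay below all wild-type mice.

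Slc18a3, the only cholinergic member with values above 5, measured 5.01, 5.03, 5.39 and 5.23 in wild-type mice 161, 170, 180 and 200. The mutants measured 4.93, 5.13, 4.77 and 5.11. The ranges overlapped, and the log2 change was -0.082 (SE 0.12, limma adjusted p = 0.807) with an interval of -0.35 to 0.19. Averaged over the 3 genes after centring each on its 8 mice, the cholinergic score lay between 0.059 and 0.11 in the wild-type mice and between -0.23 and 0.0028 in the mutants, given here as a description. Chat and Slc5a7, which enter this score, lay under 5 in all 8 mice. The somatostatin score, made the same way, overlapped, at -0.023 to 0.19 in wild-type and -0.15 to -0.010 in mutant mice.

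A list of 10 further genes of cholinergic neurons had 6 measured members, of which 0 passed in either direction by limma, against 9.27% of all genes at their brightest probe set. The list's median log2 change was 0.057, beside 0.0052 over all genes. Some of its members lay well above 5. Isl1, a transcription factor of developing cholinergic neurons, stood at 7.71 ± 0.19 (SD, n = 4) in wild-type and 7.77 ± 0.24 in mutant mice, with a sex-adjusted log2 change of 0.26 (limma adjusted p = 0.166). Lhx8, another such factor, stood at 7.07 ± 0.18 and 6.94 ± 0.36, and its sex-adjusted log2 change of 0.12 (adjusted p = 0.645) had the opposite sign to the difference of these means. Ache, which encodes acetylcholinesterase and is also made by other neurons, stood at 7.81 ± 0.29 and 8.37 ± 0.12, a log2 change of 0.45 (limma adjusted p = 0.106). Its groups did not overlap, and it passed in the fit without the sex term (adjusted p = 0.0237).

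Pvalb, the calcium-binding protein of fast-spiking interneurons, had the largest SE of the genotype effect among the 14 probe sets. It measured 8.12, 7.84, 8.27 and 8.39 in wild-type mice 161, 170, 180 and 200, and 7.84, 8.09, 8.91 and 8.29 in mutants 141, 153, 154 and 191. Mutant 154 was higher than all other mice, and mutant 141 as low as wild-type 170. The log2 change of 0.14 had an SE of 0.24 (limma adjusted p = 0.844) and a 95% interval of -0.41 to 0.69, or 0.754 to 1.61 times the wild-type level, so a change of either sign within it was not detectable. Without mutant 154 the log2 change was -0.0095.

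Of 11 measured genes in a list of other fast-spiking cell genes, 2 fell and 1 rose, against 4.73% of all genes lower and 4.54% higher. Kcna1, a potassium channel subunit gene of axons, fell by 0.55 on the log2 scale (SE 0.091, limma adjusted p = 0.00669), and Syt2, a synaptotagmin of fast-releasing terminals, fell by 0.68 (SE 0.17, adjusted p = 0.0392). Cplx1, a complexin that binds the vesicle release machinery, rose (log2 change 0.39, SE 0.081, adjusted p = 0.0197). Kcnc1 and Kcnc2, the channel genes that allow fast spiking, had log2 changes of 0.38 and 0.36 that did not pass (adjusted p = 0.104 and 0.594). The neurofilament gene Nefh passed as higher only in the fit without the sex term (adjusted p = 0.0867 with and 0.0202 without it). The median log2 change of the 11 was -0.083. These genes are not restricted to striatal interneurons.

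Calb2, Th and Kit mark smaller or less distinct interneuron groups. Calb2 encodes calretinin and measured 5.65, 5.70, 5.42 and 5.76 in wild-type mice 161, 170, 180 and 200 and 5.31, 5.63, 5.35 and 5.22 in mutants 141, 153, 154 and 191. Of the mutants 3 lay below every wild-type mouse and mutant 153 within the wild-type range. Calretinin mRNA had a log2 change of -0.32 (SE 0.12) and did not pass (limma adjusted p = 0.191).

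Th encodes tyrosine hydroxylase, the first enzyme of dopamine synthesis, whose protein in striatum lies mostly in axons from the midbrain while its mRNA there comes from a few local cells. It measured 5.47, 5.84, 5.10 and 5.42 in wild-type mice 161, 170, 180 and 200 and 5.30, 5.52, 5.44 and 5.26 in the mutants. All 4 mutants lay inside the wild-type range, whose ends were mice 170 and 180. Its log2 change was -0.12 (SE 0.16, limma adjusted p = 0.778). Of 9 genes listed for catecholamine neurons, 1 rose and 0 fell, against 4.54% of all genes higher and 4.73% lower. Another 6 of the 9, Slc6a3, Slc18a2, Pitx3, En1, Foxa2 and Gch1, stayed under 5 in all mice. The one that rose was Ddc, the decarboxylase that makes dopamine and serotonin, from 6.10 ± 0.11 (SD, n = 4) to 6.58 ± 0.18 (log2 change 0.48, limma adjusted p = 0.0448).

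Kit encodes the receptor for stem cell factor. Its brightest probe set (1452514_a_at) measured 6.70, 7.18, 7.02 and 7.11 in wild-type mice 161, 170, 180 and 200 and 6.29, 6.47, 6.37 and 6.83 in mutants 141, 153, 154 and 191. The only overlap was between the male mutant 191 and the female wild-type 161, and within each sex the mutants lay lower, by 0.32 in females and 0.27 in males. The log2 change was -0.30 (SE 0.089) and missed the threshold (limma adjusted p = 0.0865), but the call turned on which probe sets were tested. It passed with 1 probe set per gene, the brightest (adjusted p = 0.0477), and when dimmer probe sets were removed (adjusted p = 0.0480). In the fit that had no sex term Kit's log2 change was -0.51 (adjusted p = 0.0402), where 4.72% of all probe sets passed as lower. A second probe set for Kit stayed under 5 in all mice, with a log2 change of -0.14. Among 8 genes of mast cells and melanocytes, other cells that make Kit, 0 passed by limma, against 9.27% of all genes, and 6 stayed under 5 in all mice.

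Sex itself moved none of the interneuron markers past the threshold. In the same limma fit 0 of the 14 probe sets differed between the sexes, where 0.0311% of all probe sets did, and 2 had an unadjusted p under 0.05, beside 8.38% of all. These were Kit, lower in females (log2 change -0.43, unadjusted p = 0.000736, adjusted p = 0.383), and Sst, higher in females (log2 change 0.27, unadjusted p = 0.0155, adjusted p = 0.517). A limma fit with an interaction term found 0 of the 14 whose genotype effect differed between the sexes, and 0% of all probe sets. At an unadjusted p under 0.05 the counts were 0 of 14 and 4.04% of all, and 2 of the 4 combinations of genotype and sex held 1 mouse.

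On the same arrays most medium spiny neuron genes fell further than any interneuron marker. Of 21 measured genes in this list, whose fall was known when it was chosen, 19 fell and 0 rose, against 4.73% of all genes lower and 4.54% higher. Their median log2 change was -1.24. The 95% intervals of all 14 interneuron marker probe sets lay above that median, and the lowest bound of any of them was -0.65. Within each array, the log2 value of a marker gene was also set against the medium spiny neuron score, the mean of the list's values after centring each gene on its 8 mice. Without adjustment for sex, the marker minus this score was higher in the mutants by 0.83 for Kit to 1.47 for Pvalb. Within each sex Kit's difference was larger, 0.97 between females and 1.00 between males, and the smallest between females was 0.74 for Nos1. The differences of the 10 genes are a description with no test, since all share 1 score from a list whose fall was known. Chat and Slc5a7 are dim, so for them the comparison rests on signal near background.

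**Figure D3:**
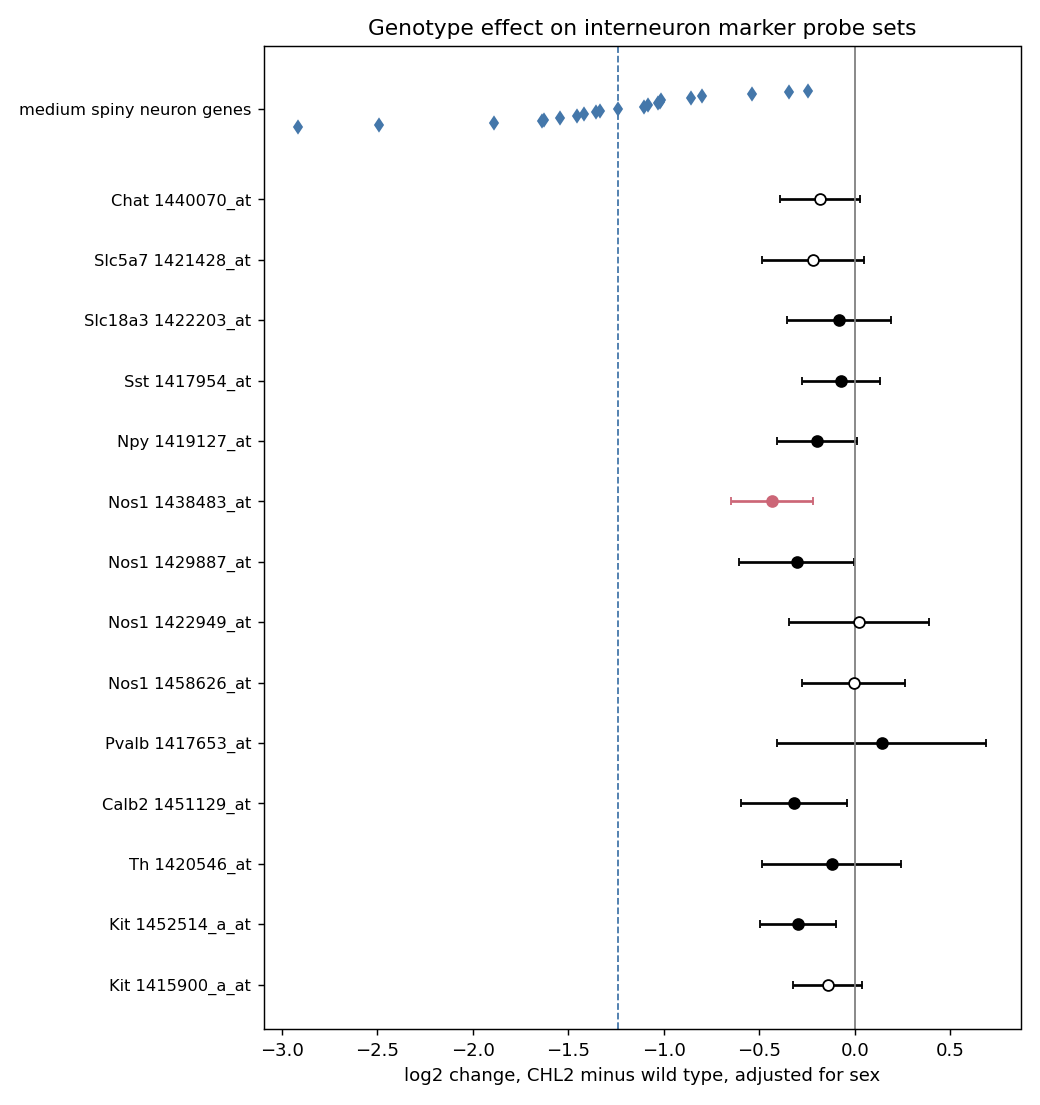
Sex-adjusted log2 change of mutant over wild type with its 95% interval for each of the 14 interneuron marker probe sets; open circles have all 8 values under 5, red marks the one that passed, blue diamonds are single medium spiny neuron genes and the dashed line is their median of -1.24. All 14 intervals lie to the right of the dashed line, but for the 5 open circles a fall of that size would be compressed near background.

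No pair of markers within a class passed a test of covariation among mice of the same genotype. Deviations from the group means were correlated over the 8 mice for the 6 pairs within the cholinergic and somatostatin classes, with exact permutation of mice within groups. Pearson's r ran from -0.49 (Spearman's rho -0.57) for Chat and Slc18a3 to 0.36 (rho 0.19) for Sst and Nos1, and adjusted permutation p-values over the 6 pairs were 0.849 or higher for Pearson's r and 0.837 for Spearman's rho. The unadjusted permutation p for these 2 pairs was 0.224 (rho 0.172) and 0.378 (rho 0.656). Without the 2 mice farthest from the median of the first gene, r became -0.75 and 0.79. Sst and Npy gave r = 0.14 (permutation p = 0.780, rho 0.17), and r = 0.052 without those 2 mice. Npy and Nos1 gave r = 0.058 (permutation p = 0.891, rho 0.095), and r = 0.57 without the 2 farthest. For 4 of the 6 pairs, Slc5a7 and Slc18a3 and Npy and Nos1 among them, r had opposite signs in the wild-type and the mutant mice, whose 4 mice each are too few for a correlation of their own.

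Genes whose deviations were most like those of 3 class markers were found among 18183 others, as a description that 8 mice can give to many genes by coincidence. For Chat they were Ist1 (r = 0.990), 4930594C11Rik (r = 0.981) and Igfbp7 (r = 0.975). For Sst they were the potassium channel interacting protein gene Kcnip4 (r = 0.987), Eif4a3 (r = 0.987) and Gm9789 (r = 0.985), and for Pvalb the kinase gene Clk4 (r = 0.981), Ttc7b (r = 0.968) and Rhoa (r = 0.957).

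Other lists that bear on interneurons are read against the 9.27% of all genes that passed and their median log2 change of 0.0052. Of 12 measured genes of interneuron development and subclass, 1 fell and 0 rose, with a median log2 change of -0.086. This was Crhbp, which encodes the binding protein of the stress peptide, with all 8 values under 5 (log2 change -0.68, limma adjusted p = 0.0188) and with no call in the fit without the sex term (adjusted p = 0.361). Lhx6, the transcription factor of the parvalbumin and somatostatin lineages, stood at 6.72 ± 0.21 (SD, n = 4) in wild-type and 6.59 ± 0.11 in mutant mice. Of 8 genes of other interneuron types, 1 fell, the peptide gene Crh (log2 change -1.10, limma adjusted p = 0.00390), again with all values under 5. The median of the 8 was -0.26, and the peptide genes Cck and Vip, which did not pass, had log2 changes of -1.29 (SE 0.43, adjusted p = 0.125) and -0.90 (SE 0.33, adjusted p = 0.159). Without the sex term Cck was at -0.60 (limma adjusted p = 0.585) and Vip at -0.51 (adjusted p = 0.464). Of 5 measured genes of GABA synthesis and transport, which medium spiny neurons share, 0 passed by limma, with a median of 0.095: Gad1 had a log2 change of -0.18 and Gad2 of -0.11.

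Cortical tissue holds many Sst, Npy, Nos1, Pvalb and Calb2 cells, so the markers of cortical excitatory neurons are given beside these results. Counts of calls are again read against the 9.27% of all genes that passed. The score of 7 measured cortical genes was 0.42, -0.13, 0.35 and -0.18 in wild-type mice 161, 170, 180 and 200 and -0.28, -0.13, 0.62 and -0.67 in mutants 141, 153, 154 and 191. It was highest in mutant 154, which also had the highest Pvalb and the lowest Nos1, and lowest in mutant 191. Mice 161 and 180, which had the highest cortical scores of the wild-type group, also had its highest Nos1 values at the brightest probe set. Among the mutants the order differed, since 191, with the lowest cortical score, had the highest Nos1 value there (8.09). At the second bright Nos1 probe set wild-type 161 was the lowest of its group (8.19). Of the 7 genes 1 fell, Fezf2 (log2 change -0.67, limma adjusted p = 0.0333; 0.277 without the sex term), and 6 of the 7 had a sex-adjusted log2 change below 0, with a median of -0.30. The vesicular glutamate transporter gene Slc17a7 stood at 6.98 ± 0.81 (SD, n = 4) in wild-type and 6.46 ± 1.42 in mutant mice. Its sex-adjusted log2 change of -1.45 (SE 0.45, adjusted p = 0.0985) and that of Neurod6, -0.98 (adjusted p = 0.246), did not pass but were further below 0 than the -0.43 of Nos1. In the limma fit without the sex term Slc17a7 was at -0.52 (adjusted p = 0.717) and Neurod6 at -0.41 (adjusted p = 0.704). Nos1 was at -0.40 in that fit. The part of cortical RNA in the interneuron values was not tested. Septal and pallidal markers had 0 of 6 calls by limma (without the sex term Zic1 passed as lower, adjusted p = 0.0423), with scores of -0.13 to 0.12 in wild-type and -0.10 to 0.13 in mutant mice. Of 9 genes listed for thalamus and hypothalamus 1 fell, Gbx1, at under 5 in both group means (limma adjusted p = 0.0142, and 0.101 without the sex term). Whether Gbx1 marks these regions was not tested. The list's scores were -0.031 to 0.11 in wild-type and -0.15 to 0.055 in mutant mice. Astrocyte, microglia and endothelial or choroid plexus lists had 0 calls of 6 genes each by limma, though the astrocyte gene Gfap passed as higher without the sex term (adjusted p = 0.0241). The endothelial or choroid plexus scores ran from -0.46 to 0.67 in wild-type and from -0.66 to 0.92 in mutant mice. Wild-type 161 and mutant 141 had the highest of their groups. The part of choroid plexus RNA in the interneuron values was not tested. Of the oligodendrocyte list 1 of 5 fell, the myelin gene Mobp (log2 change -0.38, adjusted p = 0.0444).

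**Figure D4:**
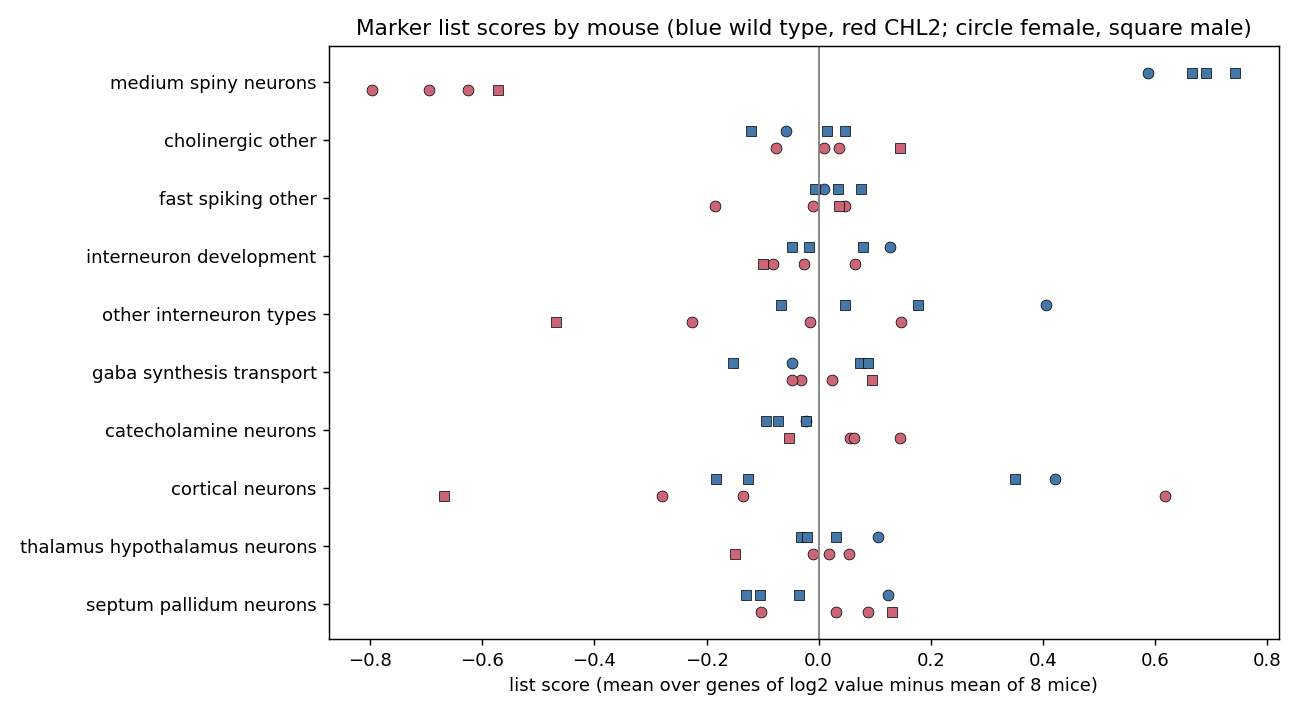
Score of the plotted marker lists in every mouse, averaged over the list's genes after each was centred on its mean in all 8 mice, wild type in blue and CHL2 in red, circles for females and squares for males. The mast cell and melanocyte, astrocyte, microglia, oligodendrocyte and endothelial or choroid plexus lists are not plotted. The medium spiny neuron scores separate the groups, at 0.59 to 0.74 against -0.80 to -0.57, while the cortical scores spread within both groups.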

How the data were processed

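Striatal total RNA of 8 mice was measured on Affymetrix mouse arrays, extracted with TRIzol and RNeasy columns per the labels' protocols. The authors made 1 log2 value per probe set with RMA in the affy package, per the submitters' processing notes. Tool versions, and which arrays entered RMA together, are unknown here. RMA forces arrays to 1 distribution and compresses changes of dim probe sets. The table has 45101 rows, of which 64 controls were left out. In the platform annotation used here, 34945 probe sets had 1 symbol, 932 several and 9160 were not listed; the last 2 kinds were not named.

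limma 3.58.1 (R 4.3.3) fitted genotype and sex, since 3 of 4 mutants and 1 of 4 wild-type mice were female, with Benjamini-Hochberg adjustment over 45037 probe sets. Genes were read from their brightest probe set. Separate animals were taken as replicates. Members and gene lists were chosen with earlier results of these data known. Named genes were all members, up to 3 genes of lowest adjusted p in lists with a call (only those that passed are printed, and none for medium spiny neurons), and the 3 genes most like Chat, Sst and Pvalb; Isl1, Lhx8, Ache, Kcnc1, Kcnc2, Lhx6, Gad1, Gad2, Slc17a7, Nefh, Cck, Vip, Neurod6, Zic1 and Gfap were added after their values were seen, as were the comparisons between genes within an array. The script was tested on simulated data with 200 of 45037 probe sets changed: 83% of 2-fold changes and 16% of 1.41-fold changes were recovered. Alternatives covered the sex term, prior, normalization, filters, probe set choice, array weights, thresholds and each mouse left out. Promoters are RefSeq windows, matched by symbol for 9 of 10 genes.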

Additional observations from a re-analysis of the deposited data

Results flagged for a closer look

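Of 28 sets of 4 values, 1 per probe set and genotype, 1 held a mouse that stood apart from its group by Dixon's ratio, where chance gives about 1 in 20. Chat in wild-type mouse 180 measured 4.18, while wild-type mice 161, 170 and 200 measured 4.26 to 4.27, which gives a ratio of 0.832. These values lie under 5.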

How the results depend on the processing

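Over all 45037 probe sets 3019 passed in the reported fit, against 1144 at an adjusted p under 0.01, 1891 of all genes when a gene's probe sets were averaged, and 652 to 3113 when 1 mouse was left out (652 without mutant 191, 773 without wild-type 161), or 2608 to 3428 with sex also left out. The count of interneuron marker probe sets called lower was 1, and so was that of genes called. Both counts were 2, with Kit beside Nos1, without the sex term, without the dimmer probe sets, with values floored at log2 of 32, with 1 probe set per gene and at an adjusted p under 0.10, and 0 on the mean of probe sets and at an adjusted p under 0.01. With 1 mouse left out both were 0 to 1, at 0 without wild-type 161, wild-type 180 or mutant 191, and 1 to 2 with sex also left out, at 2 without 161 or 191. The count called higher, and those for sex and the interaction, stayed at 0 in every setting run. The Nos1 probe set 1438483_at was called in 22 of 26 settings and Kit 1452514_a_at in 6 of 26. Npy, Calb2, Chat, Slc5a7 and Slc18a3 were called in 0 and kept a log2 change below 0 in all of theirs.

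Directions that turned belonged to values near 0 that were not called. Without the sex term the log2 change was 0.061 for Sst, -0.051 for Nos1 1422949_at and 0.055 for Nos1 1458626_at, the last also 0.0048 after quantile normalization again and 0.0018 after median centring. With 1 mouse left out, with and without the sex term, the ranges were -0.11 to -0.047 and -0.0095 to 0.13 for Sst, -0.0095 to 0.24 and -0.084 to 0.27 for Pvalb, -0.20 to -0.028 and -0.20 to 0.047 for Th, -0.13 to 0.17 and -0.14 to 0.084 for Nos1 1422949_at, and -0.070 to 0.055 and -0.045 to 0.10 for Nos1 1458626_at. Without the 2 farthest mice r was 0.11 for Chat and Slc5a7 and -0.33 for Slc5a7 and Slc18a3. The cause of these shifts was not tested. No paired analysis was possible because the labels' mouse numbers are not shared between the groups. Array signal near background limits Chat, Slc5a7, 2 Nos1 probe sets and 1 Kit probe set, whose 8 values all lie under 5. The interaction was not fitted without mice 161 or 191.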
